A study of Mus musculus with 16 samples.

Results

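The genes described are 9 members of the Hedgehog signaling pathway: the ligand *Ihh*, the receptors and surface regulators *Ptch1*, *Hhip*, *Gas1* and *Smo*, the inhibitor *Sufu*, and the transcription factors *Gli1*, *Gli2* and *Gli3*. They were found by gene name in the deposited table of raw RNA sequencing counts, where they are 9 of 25054 genes. The 16 osteosarcomas behind the table came from mice with loss of p53 and Rb1 in the bone lineage, with or without loss of *Arid1a*, a subunit of the SWI/SNF chromatin remodeling complex. In 1 of the 16 tumors, the N215 R hind limb tumor, *Gli2* stood at 2131 CPM (counts per 1e6 reads assigned to genes, after scaling of the libraries) and *Ptch1*, *Gli1* and *Hhip* at 869, 198 and 175 CPM, each above every other tumor.

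Hedgehog ligands are secreted proteins that bind Patched receptors on neighboring cells. In the absence of ligand, Patched keeps Smoothened (*Smo*) inactive, and Sufu and proteolytic processing hold the Gli factors in a repressing or silent state. Ligand binding releases Smoothened at the primary cilium, and the activated Gli factors then turn on genes that include *Ptch1*, *Gli1* and *Hhip*, which is why these genes are widely used as readouts of pathway activity. In the growing skeleton, *Ihh* from cartilage cells paces the growth plate and is required for osteoblasts to form.

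All mice carried OsxCreERT2+/-, a tamoxifen-activated Cre recombinase driven by the Osterix promoter of osteoblast precursors, together with p53fl/fl and Rb1fl/fl. The KO group held 8 tumors of 8 mice that also carried Arid1afl/fl, and the WT group held 8 tumors without that allele. Both groups received tamoxifen at 1 month of age, at 400 µg per gram, and the mice, of both sexes, were older than 6 months. The titles place the WT tumors in 4 mice and name a site for each: N42 (R pelvis, R femur, L limb and L shoulder), N43 (spine and pelvis), N215 (R hind limb) and N25 (lung), while no site is given for the KO tumors Massa, Medusa, Montana, Ohio, Prince, Grilka, Zelda and Oregon. Tumors of a shared mouse are not independent animals, so p-values over tumors measure the spread between tumors, some of them of the same mouse.

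The libraries held 1109487 to 15059640 gene counts in the KO group and 7806160 to 16962329 in the WT group. After scaling, 1 count was worth between 0.0486 CPM and 2.23 CPM (Massa, the shallowest library). The scaling factors of the library sizes were lowest in Massa (0.409) and Grilka (0.414), against 1.15 to 1.44 in the WT tumors. A low factor raises every CPM value of its library, beyond the effect of depth. The counts of *Arid1a* did not separate the groups, at 107 to 270 CPM in KO and 125 to 236 CPM in WT tumors (edgeR log2 fold change 0.16, SE 0.22, adjusted p = 0.715), and counts over the whole gene do not show whether floxed exons were lost. The summed CPM of 14 osteoblast markers ran from 718 to 61034 in KO and from 2914 to 84239 in WT tumors, and 4860 CPM in the N215 tumor. There, 3 of the 14 (*Bglap*, *Bglap2* and *Mepe*) were at 0 counts, while *Sp7*, which encodes Osterix, was at 147 CPM, 3rd of the 16 tumors, and the median log2 ratio of the 13 tested markers to the other 15 tumors was -2.53. Lung markers reached 29048 CPM in the N25 lung tumor and 12321 CPM in Massa, against at most 80.0 CPM in the other 14, and skeletal muscle markers reached 100606 CPM in Montana and 151604 CPM in Oregon. The 7 salivary gland markers summed to 114124 CPM in Prince, of which *Egf* made up 92848.5 CPM, against at most 486 CPM in any other tumor. Prince also had the lowest osteoblast marker sum, 718 CPM. In bulk RNA, fewer cells of a type and less RNA per cell cannot be told apart.

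Gene positions were taken from the GENCODE vM21 annotation of the mm10 assembly (GRCm38), to which the reads had been aligned. *Ihh* lies on the minus strand at chr1:74945315-74951672, *Gli2* on the minus strand at chr1:118834132-119053619, *Smo* on the plus strand at chr6:29735503-29761365 and *Hhip* on the minus strand at chr8:79965851-80058006. *Gli1* lies on the minus strand at chr10:127329882-127341974, *Gli3* on the plus strand at chr13:15463235-15730026, *Gas1* on the minus strand at chr13:60174405-60177365, *Ptch1* on the minus strand at chr13:63508328-63573598 and *Sufu* on the plus strand at chr19:46396896-46488804. The table gives 1 count per gene and tumor, so exons and untranslated parts were not separated. *Gli1* overlaps *Arhgap9* on the opposite strand, and the strand setting of the counting is not given in the sources used here, so reads from the shared part cannot be assigned between them. *Ptch1*, *Smo*, *Gli3* and *Gas1* overlap further annotated genes, each with far fewer counts.

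RefSeq start sites (GRCm38.p6) were available for 8 of the 9 genes, all but *Gli1*. The 250 bases before the start site are printed for *Gli2*, *Ptch1* and *Hhip*, which together with *Gli1* stood highest in the N215 tumor, with CG dinucleotides in capitals and each sequence read 5′ to 3′ toward the gene on the minus strand. The RefSeq start of *Ptch1* lies inside the span of the gene given above.
Gli2, chr1:119053620-119053869: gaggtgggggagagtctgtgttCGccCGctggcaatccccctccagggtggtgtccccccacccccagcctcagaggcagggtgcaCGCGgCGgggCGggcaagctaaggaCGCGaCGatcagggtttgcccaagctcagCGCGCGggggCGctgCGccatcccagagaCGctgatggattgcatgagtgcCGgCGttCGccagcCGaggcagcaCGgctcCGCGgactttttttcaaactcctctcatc
Ptch1, chr13:63565736-63565985: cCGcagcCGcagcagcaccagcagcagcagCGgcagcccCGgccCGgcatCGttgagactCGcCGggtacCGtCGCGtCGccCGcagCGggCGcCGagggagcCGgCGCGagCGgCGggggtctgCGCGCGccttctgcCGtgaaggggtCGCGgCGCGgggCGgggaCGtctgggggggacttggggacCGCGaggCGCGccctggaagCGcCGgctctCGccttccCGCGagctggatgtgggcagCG
Hhip, chr8:80058009-80058258: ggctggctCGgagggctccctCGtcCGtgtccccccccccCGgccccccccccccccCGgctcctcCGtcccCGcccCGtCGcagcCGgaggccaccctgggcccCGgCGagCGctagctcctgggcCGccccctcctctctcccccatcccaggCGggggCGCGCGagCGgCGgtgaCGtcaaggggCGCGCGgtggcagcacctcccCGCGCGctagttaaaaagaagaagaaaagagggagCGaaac
These stretches held 22, 41 and 28 CG dinucleotides for *Gli2*, *Ptch1* and *Hhip*, against a median of 6 over 32851 RefSeq windows. The 9-letter Gli-binding consensus GACCACCCA was searched on both strands of the window from 250 bases before to 50 after each start. It was in 0 of the 8 windows of the pathway genes and in 0.253% of all windows, and with up to 1 mismatch it was again in 0 of 8, against 6.74% of all windows. Its 7-letter core CCACCCA, which lies within the consensus, was also in 0 of 8 windows, against 9.3% of all windows. Binding sites outside these short windows were not searched.

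The levels of the 9 genes differed widely when given per kilobase of exon. *Gas1*, a surface protein that binds Hedgehog ligand, was the most abundant with a median of 23.3 CPM per kb over the 16 tumors. *Smo*, the signal transducer, followed at 11.5 and *Gli3*, which acts mainly as a repressor, at 6.05 CPM per kb. *Gli2*, *Ptch1* and *Sufu* lay close together at 3.16, 3.06 and 2.95 CPM per kb, differences far inside their spread over tumors. *Gli1* had a median of 1.56, *Hhip* of 0.20 and *Ihh* of 0.14 CPM per kb. *Ihh* was at the edge of detection with 131 counts in all, and only 9 of the 16 tumors held 3 counts or more of it.

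**Figure D1:**
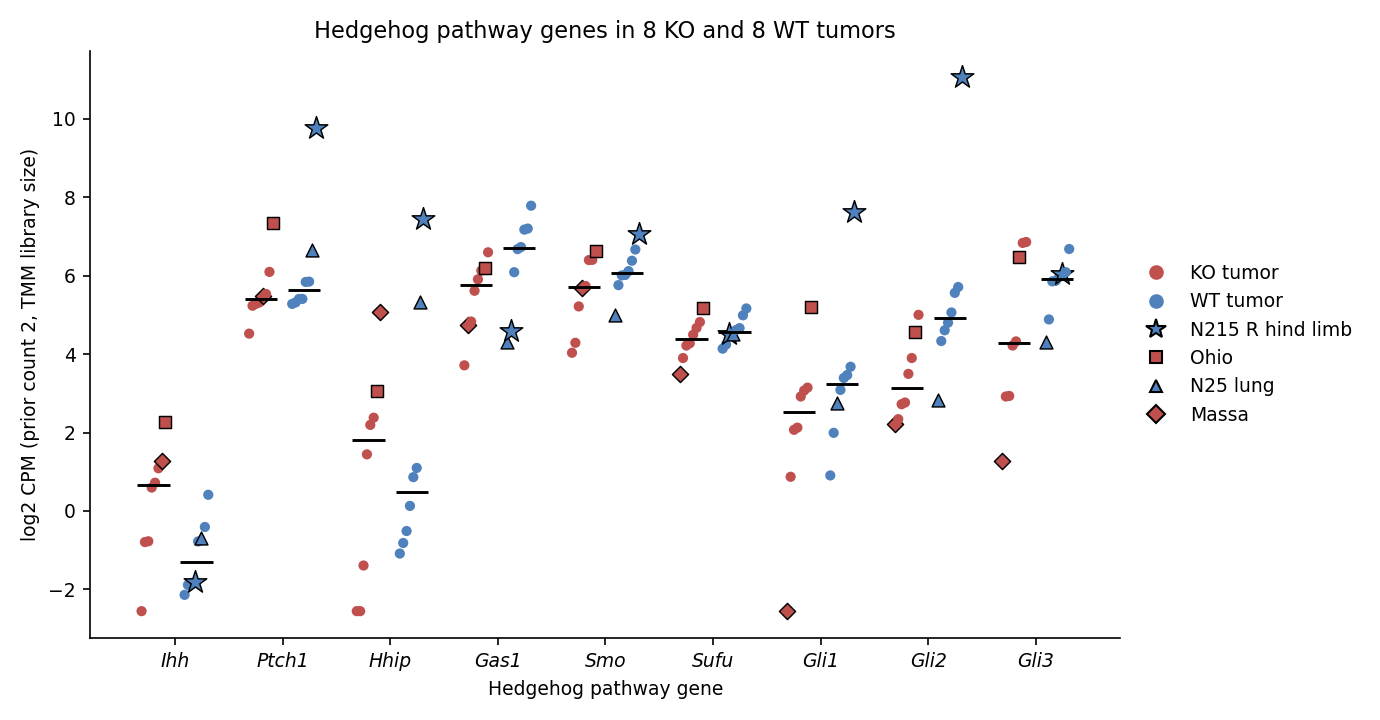
Level of each of the 9 Hedgehog pathway genes (horizontal axis) as log2 CPM with a prior count of 2 (vertical axis) in the 8 KO and 8 WT tumors, 1 point per tumor, with black bars at the group medians. The star of the N215 R hind limb tumor stands above all other points for *Gli2*, *Ptch1*, *Gli1* and *Hhip*, and within the other WT points for *Gli3* and *Sufu*.

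The transcription factor *Gli2*, the main activator of the pathway's targets, showed the widest range in CPM. On the log2 CPM scale, *Gli1* (-2.56 to 7.63) and *Hhip* (-2.56 to 7.45) spanned more than *Gli2* (2.21 to 11.06), with their lowest values at 0 counts. *Gli2* lay between 4.46 and 31.9 CPM in the KO tumors, with a median of 8.88. In the WT tumors it lay between 6.91 and 2131 CPM, with a median of 30.5. The highest value was that of the N215 tumor, with 18786 counts, and the next was the N43 spine tumor at 52.3 CPM. The N215 value was 107 times the median of the other 15 tumors, which was 20.0 CPM. Of 15413 genes tested, only 6 stood higher above the other 15 tumors in N215 than *Gli2* did by this ratio.

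The same tumor was highest for the genes by which Hedgehog activity is usually read. *Ptch1*, the receptor and feedback inhibitor, was at 869 CPM in N215, 20.5 times the median of the other 15 tumors (42.3 CPM). The next tumors were Ohio at 164 CPM and N25 lung at 101 CPM, and the remaining 13 tumors lay between 22.8 and 68.3 CPM. *Gli1*, which is both a target and an effector, was at 198 CPM in N215, against 36.9 CPM in Ohio and 12.6 CPM in the N43 spine tumor. The *Gli1* value of N215 was 26.8 times the median of the other 15 tumors (7.40 CPM), and Massa held no *Gli1* count, where 3 counts would have been 6.69 CPM.

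*Hhip*, a membrane protein that binds and sequesters Hedgehog ligand, was at 175 CPM in N215, 106 times the median of the other 15 tumors (1.65 CPM). Only 2 other tumors were above 10 CPM, the N25 lung tumor at 40.4 CPM and Massa at 33.5 CPM, the latter from 15 counts. These were the 2 tumors with high lung markers, where all 10 lung markers had counts, and the part of lung tissue in their *Hhip* value was not tested. In N215, the lung markers summed to 80.0 CPM, the highest of the other 14 tumors. Of the 10, 7 were at 0 counts there, among them the surfactant genes *Sftpa1*, *Sftpb*, *Sftpc* and *Sftpd*, and 70.1 CPM came from *Napsa*, which was 3rd of 16. *Hhip* had 0 counts in Prince and Grilka, where 3 counts would have been 0.249 and 4.03 CPM.

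The other 5 genes did not share this pattern in full. *Smo* was also highest in N215, at 135 CPM, but only 2.10 times the median of the other 15 tumors (64.2 CPM) and 1.33 times the next tumor, N43 spine. *Gli3* stood 6th of 16 in N215 at 65.8 CPM and *Sufu* 9th at 22.6 CPM. *Gas1* was low there, at 23.8 CPM and 14th of 16, and *Ihh* had 1 count (0.113 CPM). Of the other ligands, *Shh* had 0 counts in N215, where 3 counts would have been 0.340 CPM, and *Dhh* had 3. Thus, 5 of the 8 genes that passed the filter on low counts were highest in N215, where 5.77% of all genes tested were. For 4 of the 8, *Gli2*, *Ptch1*, *Gli1* and *Hhip*, the N215 tumor was highest and at least 8 times the median of the other 15, where 1.19% of all genes tested were. The tumor was singled out after its values were seen, so these counts describe it and carry no test. Markers of other tissues were also high in N215. The 10 skeletal muscle markers summed to 5987 CPM, with a median log2 ratio to the other 15 tumors of 4.37 and none highest in N215. Of 9 growth plate cartilage genes tested, with a median log2 ratio of 3.24, 2 were highest there, *Sox9* at 147 CPM (at most 128 elsewhere) and *Hapln1* at 25.2 CPM (at most 10.6 elsewhere), and *Col2a1* and *Comp* were at 17.3 and 17.2 times the median. The sums over stroma and macrophage markers were 4725 and 531 CPM, with median log2 ratios of 0.17 and 0.53. The part of such cells in the pathway values of N215 was not tested.

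Genes known as Hedgehog targets in other tissues were listed separately, and 4 of the 7 tested were highest in N215, beside the 5.77% of all genes tested. *Ccnd2*, a cyclin of the G1 phase, was at 641 CPM there, against at most 245 CPM elsewhere, and the survival gene *Bcl2* at 291 CPM, against at most 99.6. *Ccnd1* was at 233 CPM in N215 and higher in the N42 L limb tumor, at 283 CPM. Of targets below the low-count filter, named after their values were seen, *Hsd11b2* reached 15.2 CPM (134 counts) in N215, against at most 0.83 CPM elsewhere, and *Mycn* 36.4 CPM (321 counts), against at most 2.23 CPM. Among receptor genes, *Gpc3*, a glypican that binds Hedgehog ligand, stood at 175 CPM in N215, against at most 83.0 CPM elsewhere. The co-receptor *Boc* was at 86.5 CPM in N215 and at 153 CPM in N43 spine, and *Mosmo*, which restrains Smoothened at the cell surface, was 15th of 16 there at 25.4 CPM. By list, the median log2 ratio of N215 to the other 15 tumors was 2.72 for the 8 pathway genes tested, 2.74 for 7 targets and 1.60 for 4 receptors. It was 0.39 for 6 ligand and ligand-release genes, 0.13 for 20 intracellular regulators and 0.22 for 26 cilium genes, beside 0.04 for all 15413 genes. The medians of the cartilage and muscle markers, given above, were larger than that of the pathway genes, as was that of 2 epithelial markers tested (3.05), so a high median was not particular to Hedgehog lists.

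**Figure D2:**
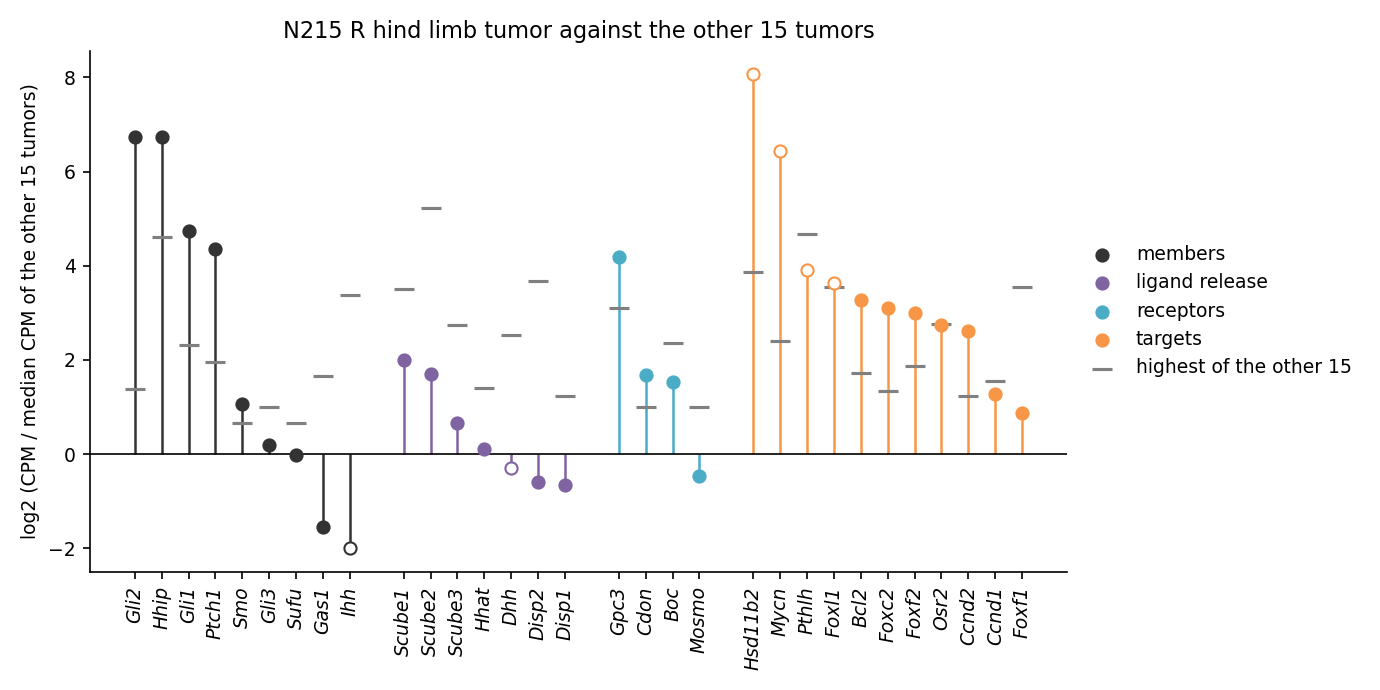
Log2 ratio of the N215 R hind limb tumor to the median of the other 15 tumors (vertical axis) for each gene of 4 Hedgehog lists whose median in those 15 was above 0 (horizontal axis), with open points for genes below the low-count filter and grey dashes at the highest of the other 15. *Gli2* and *Hhip* reach 6.74 and 6.73, and points above their dash are genes highest in N215.

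The tested genes next to *Gli2* on chromosome 1 were then compared in the same tumor, a comparison chosen after the values were seen. Distances are between start sites, with negative values toward lower coordinates. On that side, the 4 nearest tested genes were all high in N215. *Tfcp2l1*, a transcription factor gene at -426 kb, was at 565 CPM, 64.2 times the median of the other 15, although Prince held 4129 CPM. *Clasp1*, whose protein binds microtubule ends, was at 977 CPM at -665 kb (9.41 times the median, other tumors at most 163 CPM). *Nifk*, which encodes a nucleolar protein, was at 262 CPM (16.3 times, at most 33.97 CPM) and *Tsn*, at -742 kb, at 496 CPM (8.77 times, at most 81.1 CPM).

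The next tested gene on that side, *Dsel*, lies at -7189 kb and was at 1.53 times the median. On the other side of *Gli2*, *Inhbb* at 369 kb was at 0.443 times and *Ralb* at 451 kb at 0.938 times the median, and none of the tested genes up to 1000 kb exceeded 2.79 times (*Epb41l5*). High levels in N215 were thus found for *Gli2* and its tested neighbors on 1 side. Over both sides within 1000 kb, the median log2 ratio of the 11 tested neighbors of *Gli2* was 0.46, and 3 were highest in N215. Around *Smo* it was 0.49 (24 genes, 6 highest in N215). It was 0.25 around *Ptch1* (22 genes, 2 highest), 0.19 around *Gli1* (47 genes, 0 highest) and -0.07 around *Hhip* (9 genes, 0 highest). The own log2 ratios of *Gli2*, *Smo*, *Ptch1*, *Gli1* and *Hhip* were 6.74, 1.07, 4.36, 4.75 and 6.73. Single neighbors reached 6.00 near *Gli2*, 4.48 near *Ihh*, 3.76 near *Smo* and 2.88 near *Ptch1*. DNA copy number and structure were not measured in these samples, and their part in the N215 values was not tested.

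**Figure D3:**
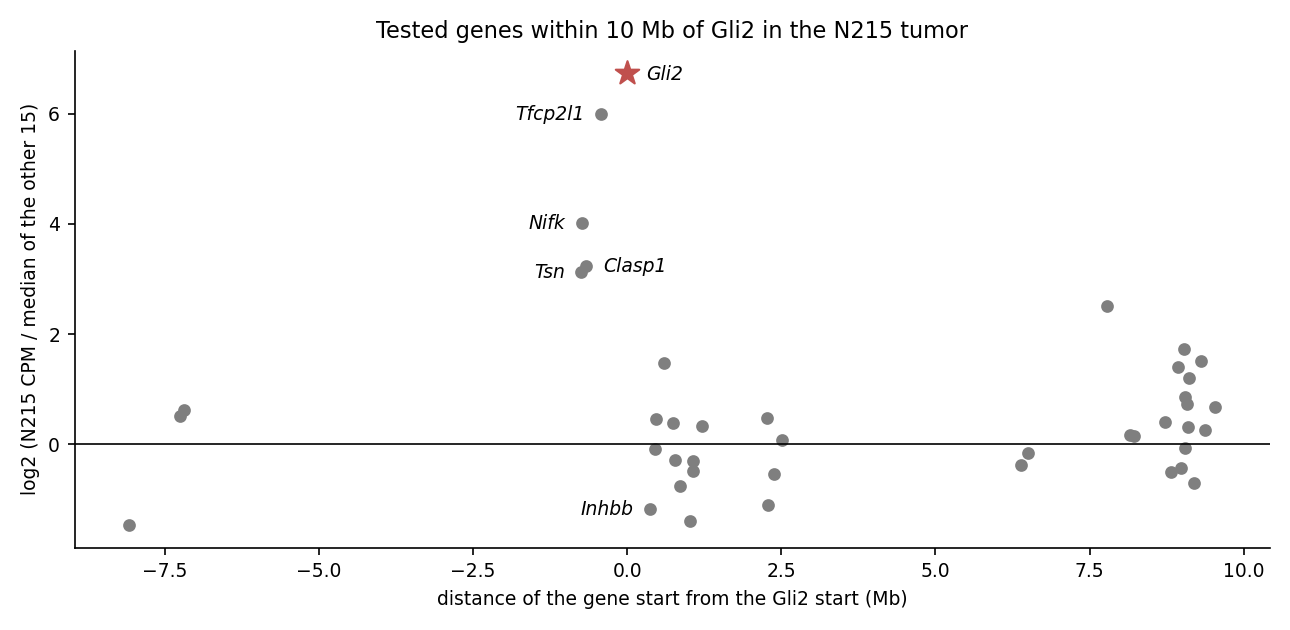
Log2 ratio of the N215 tumor to the median of the other 15 tumors (vertical axis) for tested genes within 10 Mb of *Gli2*, against the distance of each gene's start from the *Gli2* start in Mb (horizontal axis). *Gli2* (star, 6.74) and 4 genes at its left stand apart, while the points up to 1 Mb at its right lie between -1.17 and 1.48.

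The comparison of KO with WT tumors asks whether expression differed with loss of *Arid1a*. Of 15413 genes tested with the quasi-likelihood test of edgeR, 4.01% passed an adjusted p of 0.05, 2.15% lower and 1.86% higher in KO. SE values beside edgeR fold changes were derived from its F statistic, as described under processing. Of the 8 pathway genes tested, 1 passed, *Gli2*, which was lower in KO by 4.47 on the log2 scale (SE 1.17, edgeR adjusted p = 0.0416, n = 8 and 8). The groups overlapped, since the KO tumors Medusa and Ohio, at 31.9 and 23.5 CPM, exceeded 4 and 2 of the WT tumors. The lowest *Gli2* values of the 16 tumors were those of Massa, Prince, Oregon, Montana and N25 lung, at 4.46, 4.90, 6.43, 6.63 and 6.91 CPM. Each of these tumors held high lung, salivary gland or skeletal muscle markers, and the part of such tissue in the difference was not tested. No site is given for the KO tumors, so their sites could not be compared with those of the WT tumors. The size of the difference rested on the N215 tumor, without which it was -1.15 (SE 0.48, edgeR adjusted p = 0.151). The call was close to the threshold and was lost on leaving out any 1 of 12 of the 16 tumors, with edgeR adjusted p from 0.0262 to 0.151 over all 16 omissions. With counts summed per mouse, 8 KO against 4 WT mice, it was -5.35 (adjusted p = 0.214), and -0.90 (adjusted p = 0.795) when mouse N215 was left out.

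DESeq2, the tool of the study, replaces counts it finds outlying in groups of this size. It put 169 in place of the 18786 *Gli2* counts of N215, and gave a log2 fold change of -1.09 (SE 0.47, DESeq2 adjusted p = 0.103). It also imputed the N215 counts of *Ptch1*, *Gli1* and *Hhip*, with 408 for 7659, 61 for 1749 and 22 for 1540, and the Ohio counts of *Ptch1* and *Gli1*. In an exact two-sided permutation test on log2 CPM, the mean difference of *Gli2* was -2.12 over tumors (p = 0.0140) and -1.33 without N215 (p = 0.0286). Over mice it was -2.61 (exact p = 0.0424) and without N215 -0.93 (exact p = 0.230), where the smallest possible p was 0.00606. These permutation p-values are for *Gli2* alone and not adjusted for the number of genes.

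The other pathway genes tested did not pass the threshold. The edgeR log2 difference, KO minus WT, was -1.42 for *Ptch1* (SE 0.70, adjusted p = 0.230), -1.74 for *Gli1* (SE 0.93, adjusted p = 0.274) and -2.33 for *Hhip* (SE 1.45, adjusted p = 0.349). Without the N215 tumor these values were 0.15, 0.34 and -0.18, so the sign of *Ptch1* and *Gli1* turned. *Gas1* differed by -0.999 (SE 0.48, adjusted p = 0.221), *Smo* by -0.44 (SE 0.37, adjusted p = 0.512), *Gli3* by -0.31 (SE 0.63, adjusted p = 0.815) and *Sufu* by -0.16 (SE 0.25, adjusted p = 0.752). All 8 tested values were below 0, as were 44.1% of all genes tested, whose median was 0.10, and the median of the 8 was -1.21.

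**Figure D4:**
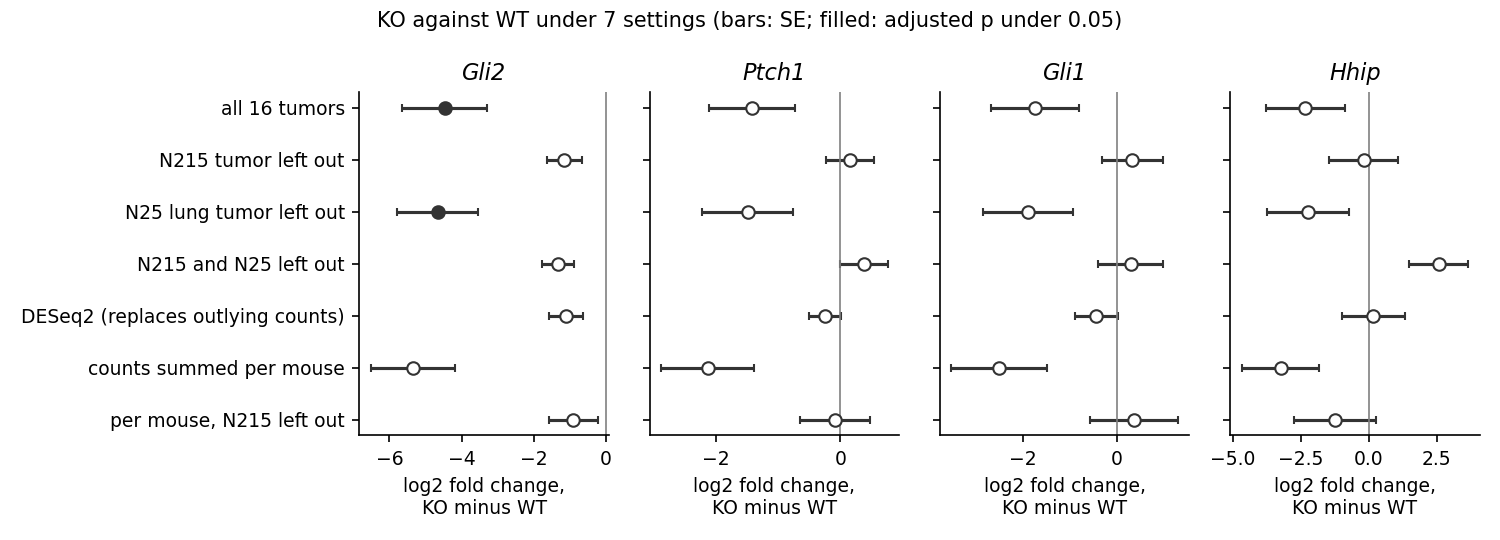
Log2 fold change, KO minus WT, of *Gli2*, *Ptch1*, *Gli1* and *Hhip* (horizontal axes) under 7 settings (rows), with bars of 1 SE and filled points where the adjusted p was under 0.05. Only *Gli2* has filled points, with all 16 tumors and without N25 lung, and its value moves from -4.47 to -1.15 when the N215 tumor is left out.

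*Ihh* did not pass the filter on low counts. It lay between 0 and 4.68 CPM in KO tumors (median 1.41) and between 0.0568 and 1.16 CPM in WT tumors (median 0.263). The highest value was that of Ohio with 49 counts, but the next, Massa at 2.23 CPM, was a single count. In a fit without the filter *Ihh* was higher in KO by 1.93 on the log2 scale (SE 0.81, edgeR adjusted p = 0.165), and by 1.25 (adjusted p = 0.357) without Ohio. The difference did not pass the threshold at this depth.

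Some macrophage and stromal markers were called in the edgeR and DESeq2 fits over tumors, but none in the fits that took account of mouse. Of all genes tested, edgeR called 2.15% lower in KO, and DESeq2 called 958 of 20078 lower. An unadjusted p under 0.05 was found for 3546 of 15413 genes with edgeR, 1371 of 15413 with limma and 1262 of 16007 per mouse. Of 9 macrophage genes, 7 were called lower in KO, where they summed to 120 to 553 CPM against 311 to 1864 CPM in WT tumors. DESeq2 also called 7, but 0 were called with mouse as a random effect in limma or with counts summed per mouse, where 7 had an unadjusted p under 0.05 in each. Of 10 stromal genes, 3 were called lower in KO, with sums of 660 to 4830 CPM against 2807 to 36532 CPM. DESeq2 called 6 of these, and 0 were called in the limma and per-mouse fits (3 and 6 at an unadjusted p under 0.05). Of 13 osteoblast genes tested none passed (4 at an unadjusted p under 0.05, and 4 lower by DESeq2). No gene of the macrophage and stromal lists was at 0 outside Massa, and their part in the KO and WT values of the pathway genes was not tested.

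Ohio, singled out after its values were seen, was the highest KO tumor for several of the genes. *Ptch1* was 164 CPM there against at most 68.3 CPM in the other 7, and *Gli1* 36.9 CPM against at most 8.68. *Smo* (99.7 CPM) and *Sufu* (36.1 CPM) were also highest in Ohio, so that 4 of the 8 tested genes had their KO maximum there, where 11.1% of all genes tested did. *Gli2*, at 23.5 CPM, was below Medusa, and *Hhip*, at 8.11 CPM, below Massa. *Gli3* separated the KO tumors into Medusa, Grilka and Ohio at 116, 114 and 88.4 CPM and the other 5 at 2.23 to 19.9 CPM. The same 3 held the highest osteoblast marker sums of the KO tumors, at 39966, 61034 and 26234 CPM against at most 11851 CPM in the other 5, and the part of osteoblast content in their *Gli3* values was not tested. Of the other 5, Massa held high lung markers, Montana and Oregon high skeletal muscle markers and Prince high salivary gland markers. The part of such tissue in their low *Gli3* values was not tested either.

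Body site could be compared only among WT tumors, where it is nested in 4 mice, so values are given with no test. The 4 tumors of mouse N42 were alike for *Gas1* (102 to 147 CPM), *Ptch1* (38.7 to 57.5 CPM) and *Smo* (54.0 to 83.2 CPM). They spread further for *Gli2*, from 20.0 CPM in the L limb to 47.1 CPM in the R femur, and for *Gli1*, from 1.70 CPM in the R femur to 10.9 CPM in the R pelvis. In mouse N43, *Gas1* was 221 CPM in the spine and 67.9 CPM in the pelvis, and *Gli2* was 52.3 and 24.2 CPM. The single limb tumor of N215 was therefore far outside the range of the 3 limb and shoulder tumors of N42 for *Gli2*, *Ptch1*, *Gli1* and *Hhip*. N25 lung was the lowest WT tumor for *Gli2*, *Gli3*, *Smo* and *Gas1*, at 6.91, 19.6, 31.8 and 19.6 CPM.

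The wider pathway was compared between KO and WT through lists of ligand, receptor, intracellular, cilium and target genes. As a background for the counts by list, 3546 of all 15413 genes tested had an unadjusted edgeR p under 0.05. DESeq2 called 1559 of 20078 genes higher in KO and 958 lower. Of 6 ligand-release genes tested, 1 passed, *Scube1*, whose protein helps release Hedgehog ligand from cells, and all 6 had values below 0, with a median of -1.97 beside 0.10 for all genes tested. *Scube1* had a median of 3.12 CPM (0 to 26.9) in KO and 32.5 CPM (10.2 to 144) in WT tumors, a log2 difference of -2.75 (SE 0.74, edgeR adjusted p = 0.0444), and without N215 the adjusted p was 0.0508. It did not pass with counts summed per mouse (edgeR adjusted p = 0.409) or with mouse as a random effect in limma (adjusted p = 0.526). DESeq2 called 2 of these 6 genes lower. *Scube3* differed by -2.12 (SE 0.70, adjusted p = 0.0881) and *Disp1*, the transporter that exports the ligand, by -0.01 (SE 0.47, adjusted p = 0.994). Of 4 receptor genes tested (median -1.04) none passed with edgeR, 3 had an unadjusted p under 0.05 and DESeq2 called 1 lower. Among them were *Boc* at -1.49 (adjusted p = 0.0853), *Mosmo* at -0.52 (adjusted p = 0.214) and *Gpc3* at -2.13 (adjusted p = 0.143). *Shh* and *Dhh*, the other ligands, were not tested for low counts and reached at most 11.2 and 2.39 CPM, both in N25 lung.

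Of 20 intracellular regulators tested (median 0.06), 1 passed, the kinase gene *Ulk3*, which was higher in KO. It had a median of 22.9 CPM (11.9 to 66.9) in KO and 10.2 CPM (6.11 to 16.2) in WT tumors, a log2 difference of 1.57 (SE 0.39, edgeR adjusted p = 0.0327), with an adjusted p of 0.019 without N215. It did not pass with counts summed per mouse (edgeR adjusted p = 0.532) or with mouse as a random effect in limma (adjusted p = 0.489). DESeq2 called 2 of the 20 higher. The kinases *Csnk1a1* and *Gsk3b*, which mark Gli proteins for processing, differed by -0.17 (adjusted p = 0.653) and -0.05 (adjusted p = 0.925). *Spop*, an adaptor for Gli degradation, was at 1.22 (adjusted p = 0.126), with 892 CPM in Massa. Of 26 cilium genes (median 0.10) none passed with edgeR and 5 had an unadjusted p under 0.05, beside 3546 of all 15413 genes. DESeq2 called 1 higher and 1 lower, beside 1559 higher and 958 lower of 20078 genes. *Pkd2*, *Dync2h1* and *Cep290* were at 0.00, 0.34 and 1.07 (adjusted p = 1.00, 0.749 and 0.111). Of 7 targets tested (median -1.34) none passed with edgeR, 4 had an unadjusted p under 0.05, and DESeq2 called 3 lower. All 7 values were below 0, among them *Ccnd1* at -1.56 (adjusted p = 0.0789), *Ccnd2* at -0.72 (adjusted p = 0.441) and *Bcl2* at -1.34 (adjusted p = 0.194).

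Over the 12 mice, with counts summed per mouse, *Gli1* was set against each of the other 8 pathway genes. Pearson's r was 0.78 with *Gli2* (permutation p = 0.00927, adjusted over the 8 relations 0.0454) and Spearman's rho 0.78 (p = 0.00422, adjusted 0.0338). With *Gli3*, r was 0.69 (permutation p = 0.0113, adjusted 0.0454) and rho 0.55 (p = 0.0657, adjusted 0.175). With *Ptch1*, r was 0.71 (permutation p = 0.0229, adjusted 0.061) and rho 0.57 (p = 0.0546, adjusted 0.175), and with *Sufu* r was 0.64 (permutation p = 0.031, adjusted 0.0621). For *Smo*, *Hhip*, *Ihh* and *Gas1*, r was 0.39, 0.25, -0.27 and 0.02. Massa and N215 lay farthest from the *Gli1* median, and without them r was 0.56 with *Gli2*, 0.48 with *Gli3* and 0.68 with *Ptch1* (adjusted permutation p = 0.228, 0.261 and 0.228). Massa, the shallowest library, held 0 *Gli1* counts, so its log2 value of -3.10 was set by the prior count. That mouse was also the lowest for *Gli2*, *Gli3* and *Sufu*, and the part of library depth in these relations was not tested. Within the 8 KO mice, r was 0.71, 0.73 and 0.48 (adjusted permutation p = 0.082, 0.082 and 0.442), and 4 WT mice were too few. With only N215 left out, r was 0.79 with *Sufu*, 0.73 with *Gli3*, 0.63 with *Gli2* and 0.44 with *Ptch1* (adjusted permutation p = 0.0298, 0.0298, 0.0339 and 0.354), while rho passed for none (adjusted permutation p = 0.144 for *Gli2* and 0.28 for *Gli3*). No relation passed when both Massa and N215 were left out, which also left 10 mice in place of 12. Leaving out Massa alone was not tried, so the parts of Massa, of N215 and of the lower number of mice were not separated.

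**Figure D5:**
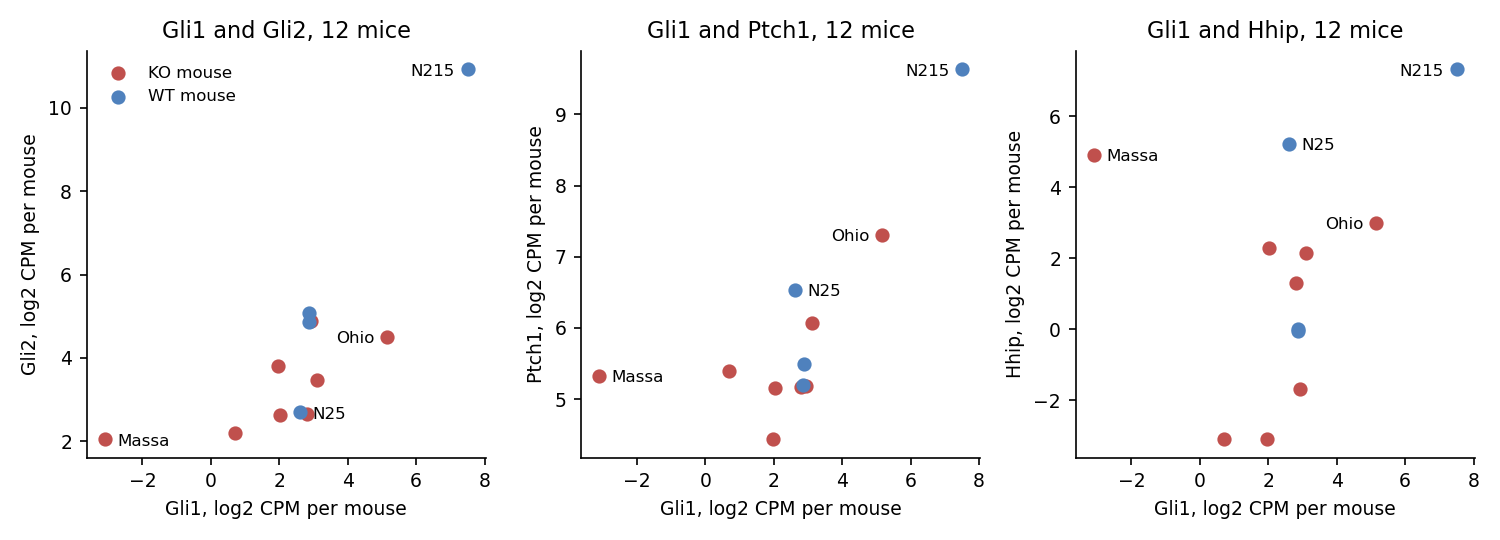
*Gli1* (horizontal axes) against *Gli2*, *Ptch1* and *Hhip* (vertical axes), in log2 CPM of counts summed per mouse, 1 point for each of 12 mice. N215 stands at the upper right of every panel and Massa at the far left, and Massa and N25 are high for *Hhip* at low or middle *Gli1*.

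The 5 tested genes whose profile over the 12 mice was most like that of *Gli1* were *Adamts3* (r = 0.96), *Gtf3c4* (0.94), *Ube2t* (0.93), *Ccnjl* (0.93) and *Prtg* (0.91). For *Ptch1* they were *Tsn* (r = 0.88), *Wdr82* (0.88), *Nifk* (0.87), *Pald1* (0.86) and *Tmem51* (0.85), of which *Tsn* and *Nifk* are neighbors of *Gli2*. For *Ihh* they were *Ftl1-ps1* (r = 0.82), *Msto1* (0.79), *Ino80e* (0.78), *Gm14413* (0.78) and *Hax1* (0.75). Without mouse N215, r between *Ptch1* and *Gli2* fell from 0.77 to 0.07 and that between *Ptch1* and *Hhip* from 0.73 to 0.59. *Gtf3c4* was then 3rd for *Gli1* (r = 0.96) and *Msto1* 5th for *Ihh* (r = 0.81). These likenesses are descriptions across 12 mice that differ in library depth and tumor site, and carry no test.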

How the data were processed

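RNA of 16 tumors was sequenced from 1 end after removal of ribosomal RNA. The authors aligned the reads with Novoalign 2.08.01 to mm10 and Ensembl transcript models, allowing up to 50 alignments per read and keeping the best, and the deposited values are their raw counts per gene. A gene's reads shared with a close copy may thus be misplaced. No column of other samples was present.

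Counts were normalized by TMM and filtered with filterByExpr (minimum count 10, total 15), which left 15413 genes. KO was compared with WT by the edgeR 4.0.16 quasi-likelihood test in R 4.3.3 with Benjamini-Hochberg adjustment over all genes tested. The SE of edgeR values was derived as the absolute log2 fold change over the square root of the F statistic. It is not a fitted standard error, whereas the SE of DESeq2 is that of its own fit. The precision follows the total counts per tumor, 1109487 to 16962329. log2 CPM used a prior count of 2. Permutation tests were two-sided, exact or with 100000 resamples. Alternatives used DESeq2 1.42.0, limma 3.58.1, relative log expression factors, no filter, sums per mouse and omission of tumors. The edgeR, DESeq2 and limma fits were tested on simulated data with known changes.

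Besides the 9 genes, the text names, from each of 5 other Hedgehog lists, every gene past the threshold and the 3 most abundant, the 5 genes most like *Gli1*, *Ptch1* and *Ihh*, and *Arid1a*; others are said to be chosen after their values were seen. In the receptor list 2 genes are not reported here, and its counts are without them. The genes and lists were chosen with earlier results of these data known.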

Additional observations from a re-analysis of the deposited data

Results flagged for a closer look

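Within the 8 WT tumors, the N215 R hind limb tumor lay apart from the rest for 3 pathway genes on the log2 CPM scale. The gap to the nearest tumor took up 0.693 of the group's whole range for *Ptch1*, 0.649 for *Gli2* and 0.588 for *Gli1*, above Dixon's 95% critical value of 0.526 for 8 samples. The values were 869, 2131 and 198 CPM. *Hhip* in the same tumor, at 175 CPM, had a gap of 0.247 because the N25 lung tumor was also high, and was not past that value. No KO tumor was past it for any of the 9 genes, the largest gap being that of *Ptch1* in Ohio at 0.444. For 8 independent normal values, chance alone puts about 1 in 20 groups past this value. The highest and lowest tumor of KO and of WT were searched for each of the 9 genes, so chance had many occasions. The 3 genes past it share 1 tumor, which had already been singled out by its values, so they are not independent findings. The 8 WT tumors came from 4 mice, with 4 tumors of N42 and 2 of N43, so that rate need not hold for them.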

How the results depend on the processing

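The direction of *Gli2* was the same under every alternative run. Its call held with relative log expression factors (-4.49), with no filter (-4.46) and in 4 of the 16 fits without 1 tumor. It was lost with DESeq2 (-1.09, adjusted p = 0.103), with mouse as a random effect in limma (-2.41, adjusted p = 0.574), with counts per mouse (-5.35), without mouse N42 (-5.35), without the shallow libraries Massa and Grilka (-4.37), without Montana, Oregon and Prince, which held muscle or salivary gland markers (-4.03), with Medusa and Ohio as the only KO tumors (-3.39), and, in 2 fits chosen after seeing the data, per mouse without N215 (-0.90) and without N215 and N25 (-1.32). In each of these 9 fits the number of pathway genes past the threshold was 0, with 0 to 4 at an unadjusted p under 0.05. Leaving out each tumor in turn gave 0 to 1 pathway genes, with *Gli2* from -4.81 to -1.15, kept only without Zelda, N42 L limb, N25 lung or N43 pelvis. The cause of these losses was not tested, and DESeq2 was not run without its replacement of the N215 count.

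Of all genes, 618 passed with all tumors and 252 to 1348 with each tumor left out. The number was 2517 with DESeq2, 17 with mouse as a random effect, 10 per mouse, 8 without mouse N42, 3 per mouse without N215 and 1518 without N215 and N25.

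Leaving out each tumor gave -1.87 to 0.15 for *Ptch1* and -2.58 to 0.34 for *Gli1*. Signs turned for *Ptch1* (0.15 without N215, 0.38 without N215 and N25), *Gli1* (0.34, 0.30, and 0.37 per mouse without N215) and *Hhip* (0.17 with DESeq2, 2.58 without N215 and N25). With Medusa and Ohio as the only KO tumors they turned for *Smo* (0.25), *Sufu* (0.11) and *Gli3* (0.77). *Gli3* also turned without N42 (0.15), without Montana, Oregon and Prince (0.23) and per mouse without N215 (0.10). None of these values passed the threshold, and *Gas1* and *Ihh* kept their sign.

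Of the 8 relations with *Gli1*, 2 passed with all mice, 0 without the 2 farthest mice, 0 in KO mice and 3 without N215. The sign turned for *Ihh* without the farthest mice (0.35) and for *Hhip* in KO mice (-0.18) and without N215 (-0.14). No paired analysis was possible because KO and WT tumors share no mice and the replicate numbers only name tumors. Massa, with the fewest counts, limits what low genes can show.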
